A study of Zea mays subsp. mays and Zea mays subsp. parviglumis and Zea luxurians with 126 samples.

Results

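TIL11 is an inbred line of teosinte (Zea mays subsp. parviglumis), the wild relative from which maize was domesticated. Anthers of TIL11 that measured 0.7 mm were compared with anthers that measured 1 mm, in 3 biological replicates of each length taken from distinct plants, so that 6 of the 126 sample records of the series, and of the 63 that carry cleavage-site lists, enter the comparison. All 6 libraries came from the same genotype, with no transgene, mutation or treatment, from plants grown in a growth chamber under a 12-h day. Anther length stands in for developmental time: the study places TIL11 anthers of 0.4 to 0.7 mm before meiosis and those of 1.5 to 2 mm in meiosis, and assigns 1 mm to neither phase. Whole anthers were used, so no value belongs to one cell layer, and fewer cells of a type cannot be told apart from less RNA per cell. The measurement was nanoPARE, which sequences 5′ ends of polyadenylated RNA from 5 ng of total RNA. Among these ends are those of the downstream fragments left when a small RNA guides an Argonaute protein to cut its target. Each library has a list of cleavage sites of microRNAs (miRNAs) and one of phased small interfering RNAs (phasiRNAs).

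PhasiRNAs are made in anthers from long noncoding transcripts of PHAS loci. A 22-nt miRNA cuts the precursor, an RNA-dependent RNA polymerase copies the fragment into double-stranded RNA, and Dicer-like enzymes cut that in steps of 21 or 24 nt, counted from the miRNA cut. In grasses miR2118 triggers 21-PHAS loci, best known from anthers before meiosis, and miR2275 triggers the 24-PHAS loci that are active in meiotic anthers. Other 24-PHAS loci are active before meiosis. Some phasiRNAs in turn cut their own precursor (in cis) or other RNAs (in trans). The loci of TIL11 comprise 466 21-PHAS, 156 meiotic 24-PHAS and 45 premeiotic 24-PHAS loci.

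Small RNAs with a usable sequence among those compared are printed 5′ to 3′, with the seed (bases 2 to 8) in capitals. Both miR2118 variants are shown because each shares target positions with the major small RNA of locus 21PHAS_45236, which is shown as well. miR2275 is shown because it has no seed in common with them.
miR2118b-5p: uUCCCGAUgccucccauuccua
miR2118c (also listed as miR482): uUCCUAAUgccucccauuccua
21PHAS_45236 major small RNA: uUCCUGAUgccucucauuccua
miR2275c-3p: uUCAGUUUccucuaauaucuca
All 4 are 22 nt long. Counted from base 1 at the 5′ end, miR2118c differs from miR2118b-5p by C5U and G6A. The 21PHAS_45236 small RNA differs from miR2118b-5p by C5U and C14U, and from miR2118c by A6G and C14U, so that 1 of the changes in each pair lies in the seed. The forms listed as miR2118_mirador and miR2275_mirador, which have most of the interactions, are not printed. The sequence given under those names in the list of small RNAs may be the other strand of the duplex, so which molecule these counts refer to is unsettled.

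A cleavage site is a position on a target, and its level is the number of 5′ ends there in reads per 1000000 reads of the library (RPM). Reads that fit several places had been divided among them, which leaves values below 1 read. A site passed when the adjusted p-value that the study's cleavage caller attached to it was below 0.05, and each small RNA with a passing site on a target is counted once per target as an interaction. The libraries held 2548 to 3527 records each, of which 238 to 382 passed, and the depth implied by the value of 1 read ran from 5512618 to 10697498 reads, so that 3 reads corresponded to 0.280 to 0.544 RPM. Together they named 10545 positions, of which 6944 were listed in 1 library and 277 in all 6. A site missing from a list was not listed, which is not a measured 0: of the 52 positions on 21-PHAS loci above 0.5 RPM in all 3 libraries of 1 mm, 45 were listed in all 3 libraries of 0.7 mm, 7 in none and 0 in 1 or 2. Of the 108 above 0.5 RPM in all 3 libraries of 0.7 mm, 74 were listed in 3 libraries of 1 mm, 17 in 2, 6 in 1 and 11 in none. Statements on abundance were therefore also made on the 277 positions listed in every library. The 1-mm replicate 2 stood apart from replicates 1 and 3 of its stage on 24-PHAS loci, where it listed 17 positions against 67 and 82. Results on 24-PHAS loci are given with and without it.

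miR2118 sites on 21-PHAS loci were fewer and lower in 1-mm anthers. The 0.7-mm replicates 1 to 3 held 108, 94 and 129 miR2118 interactions with 21-PHAS loci, and the 1-mm replicates held 45, 83 and 62. Every 0.7-mm library lay above every 1-mm library, with means of 110 ± 17.6 and 63.3 ± 19.0 (SD, n = 3 each). The difference in mean log2(interactions + 1) was -0.82, with a p of 0.1 by the exact permutation test (two-sided), the smallest that 3 against 3 libraries can give, and an adjusted p of 0.28 over the 14 such tests. With a library left out the difference ran from -0.60 (without 1-mm replicate 1) to -1.04 (without 1-mm replicate 2). Over all listed pairs, passing or not, it was -0.19 (exact permutation p 0.2). The sum of RPM over the listed miR2118 positions, passing or not, was lower at 1 mm as well. It was 393, 216 and 609 RPM at 0.7 mm against 103, 167 and 126 RPM at 1 mm. These sums did not overlap either (log2 ratio of the geometric means -1.52, exact permutation p 0.1, adjusted p 0.28), and no single locus carried them, since the highest position held between 2.38% and 8.21% of a library's sum.

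The 3 listed forms of miR2118 were also counted separately. Within a library each listed miR2118 position on a 21-PHAS locus was given under a single form. The form named miR2118_mirador, the one with the unsettled sequence, had 80, 68 and 96 interactions at 0.7 mm and 34, 60 and 44 at 1 mm. miR2118c had 17, 16 and 18 against 3, 12 and 7. For both forms the stages did not overlap. miR2118b-5p had 11, 10 and 15 against 8, 11 and 11, which overlap. By the study's criterion that an interaction is positive when it passes in at least 2 of 3 replicates, 116 miR2118 pairs were positive at 0.7 mm and 59 at 1 mm. The 54 shared pairs make up 46.6% of the 0.7-mm list and 91.5% of the 1-mm list. The 1-mm list was thus largely contained in the 0.7-mm list.

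**Figure D1:**
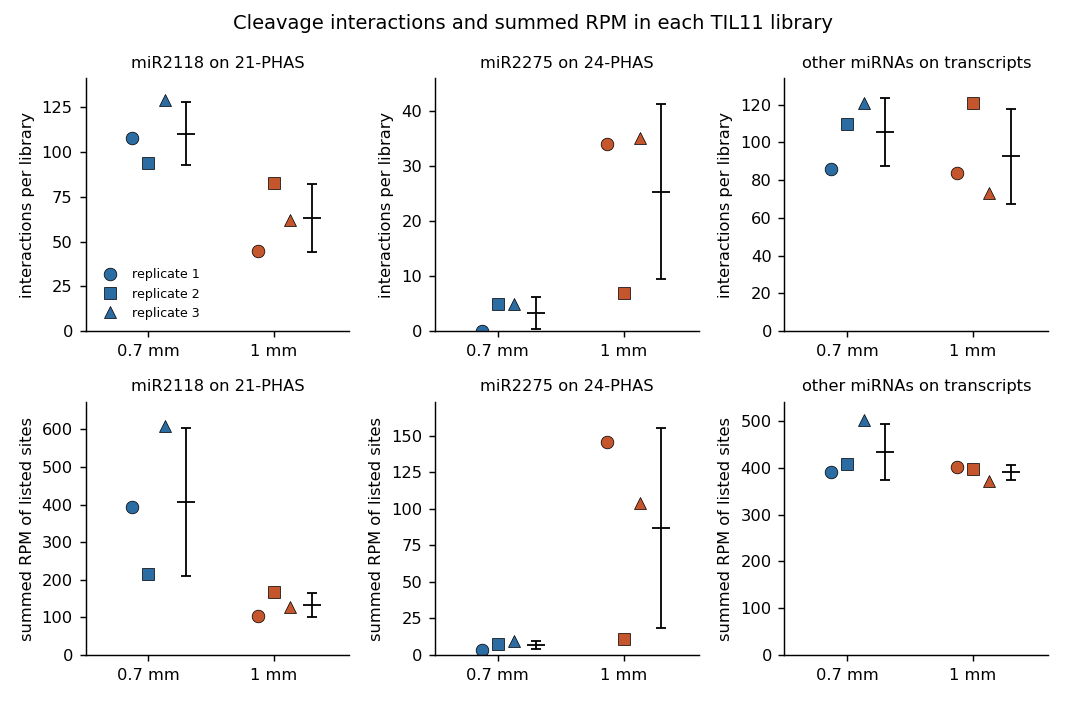
Interactions per library (upper row) and summed RPM of the listed sites (lower row) for miR2118 on 21-PHAS loci, miR2275 on 24-PHAS loci and the other miRNAs on transcripts. Each symbol is 1 library, blue for 0.7 mm and red for 1 mm, with the mean and SD of 3 libraries beside it. Transcript ids that repeat the same values are each counted. The stages do not overlap for miR2118 or miR2275, and 1-mm replicate 2 lies close to the 0.7-mm libraries for miR2275, with 7 interactions and 11.2 RPM.

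The lower values at 1 mm were spread over the loci. Of the 212 miR2118 positions, 87 were listed in all 6 libraries, and 85 of these were lower at 1 mm on average and 2 higher. Their median log2 difference of RPM (pseudocount 0.1 RPM) was -1.25, or 2.38-fold, with a range from -3.16 to 0.84. At 42 of the 87 (48.3%) every 0.7-mm library was above every 1-mm library and at 0 the reverse held. Over all 277 positions listed in every library the corresponding share was 17.7% lower and 3.25% higher at 1 mm, and the median was -0.39. The 178 transcript positions among them had a median of -0.18, with 3 positions (1.69%) apart and lower and 9 (5.06%) apart and higher. Isoforms repeat values: the 178 hold 112 distinct sets of 6 values, the 9 hold 6 and the 3 hold 3, while the 87 miR2118 positions hold 84. Leaving out each library in turn kept the miR2118 median between -1.01 and -1.63, and it was -1.41 without 1-mm replicate 2.

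At these 87 positions the difference in RPM was of similar size at sites of good and poor pairing and at high and low sites. The Allen score adds penalties for mismatches of a small RNA to its site, with 0 for perfect pairing. The median log2 difference was -1.11 at the 6 positions with a score up to 2, -1.25 at the 30 with a score over 2 and up to 4, and -1.26 at the 51 with a score over 4. For the number of interactions, the difference was smaller at a score of at most 4. It was -0.55 (exact permutation p 0.2), against -0.82 over all scores. With the positions ordered by mean RPM in 3 sets of 29, it was -1.19, -1.40 and -1.36 from the lowest set to the highest. As a description across these 87 positions, which share their libraries and their trigger, Spearman's rho of the difference was -0.21 with the mean RPM and -0.07 with the score. Positions on chromosomes 1, 2, 4, 7 and 10, which hold 20, 19, 18, 10 and 10 of the 87, had medians of -1.03, -1.25, -1.16, -1.37 and -1.35.

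Limma on the 277 positions called 16 (5.78%) lower at 1 mm at an adjusted p below 0.05 and 0 higher (49 of the 277 had an unadjusted p below 0.05), and all 16 lie on 21-PHAS loci. Of these, 15 are miR2118 positions. The exception, position 721 of 21PHAS_32830 on chromosome 7, is listed as a site of the 21PHAS_45236 small RNA and had 6.48, 4.14 and 5.44 RPM at 0.7 mm against 0.762, 0.748 and 0.817 RPM at 1 mm. The count depended on the libraries used, between 5 without 0.7-mm replicate 1 (likewise 5 without 1-mm replicate 1, and 8 without 0.7-mm replicate 3 or 1-mm replicate 3) and 40 without 0.7-mm replicate 2, in which 21-PHAS cleavage was the lowest of its stage.

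**Figure D2:**
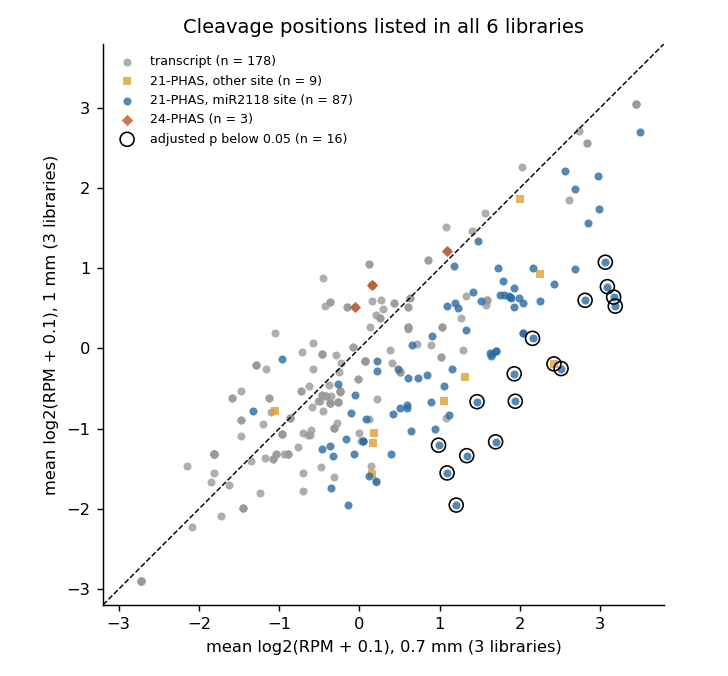
Mean log2(RPM + 0.1) at 1 mm against that at 0.7 mm for the 277 positions listed in all 6 libraries, each mean over 3 libraries. Grey points are transcripts, blue points miR2118 sites, orange squares other sites on 21-PHAS loci and red diamonds 24-PHAS loci. The dashed line marks equal values and circles mark the 16 positions with an adjusted p below 0.05, all of which lie under the line. Most blue points (85 of 87) lie under it, while the grey points fall on either side.

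The 8 miR2118 positions with the highest mean RPM among positive pairs differed in the size of the difference between stages. The highest was position 5579 of 21PHAS_3014 (TIL11 version 1 assembly, chromosome 1, 153456147 to 153461793), with 13.1, 8.04 and 13.2 RPM at 0.7 mm and 8.49, 5.98 and 5.07 RPM at 1 mm. The lowest 0.7-mm value lay below the highest 1-mm value (log2 difference -0.80 ± 0.42 SE, limma adjusted p 0.44). Position 1242 of 21PHAS_40446 (chromosome 9, 26187936 to 26189564) had 9.40, 5.36 and 14.5 RPM against 1.31, 1.87 and 0.980 RPM. That is a log2 difference of -2.66 ± 0.55 SE, with groups that do not overlap and a limma adjusted p of 0.0324. At 0.4 mm the same position had 12.01 and 20.7 RPM, and at 1.5 mm and 2 mm it was not listed. Position 647 of 21PHAS_17348 (chromosome 4, 8204819 to 8206145), a miR2118b-5p site, had 11.2, 5.24 and 10.2 RPM against 2.72, 4.02 and 0.327 RPM. Position 824 of 21PHAS_32836 (chromosome 7, 24205876 to 24207504) had 7.37, 8.29 and 9.25 RPM against 0.544, 4.21 and 3.27 RPM. Neither position passed in the fit over the 1677 positions listed in at least 3 libraries (limma adjusted p 0.16 and 0.19). Both passed in the fit over the 277 (0.0037 and 0.0135). At position 1779 of 21PHAS_3006, 7.50, 5.48 and 11.6 RPM stood against 4.03, 3.93 and 2.12 RPM, which do not overlap, with a limma adjusted p of 0.19. The remaining 3 overlapped between stages. They were 21PHAS_6269 position 569 (log2 difference -0.82 ± 0.48 SE), 21PHAS_9793 position 693 (-0.71 ± 0.62) and 21PHAS_5168 position 715 (-0.34 ± 0.57), with limma adjusted p-values of 0.52, 0.76 and 0.88.

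Over the 1677 positions listed in at least 3 libraries, with an unlisted position entered as 0 RPM, limma called 12 (0.716%) lower at 1 mm and 2 (0.119%) higher, and all 14 were on 21-PHAS loci. The set included 218 positions on 21-PHAS loci, 27 on 24-PHAS loci and 1432 on transcripts, of which 109, 7 and 142 had an unadjusted p below 0.05. The count of 14 was 3 without 0.7-mm replicate 1, 43 without 0.7-mm replicate 2, 45 without 1-mm replicate 2 and 24 without 1-mm replicate 3. Of the 12, only 21PHAS_40446 and 21PHAS_32830 were listed in all 6 libraries. The others were unlisted in at least 1 library of 1 mm and the 2 higher positions in all 3 of 0.7 mm, so these 12 calls rest on the 0 entered and, for those unlisted in a whole stage, on a filter they passed through the other stage alone. They are given as values, and their p supports no change in level. Position 1362 of 21PHAS_3032 had 1.62, 2.89 and 6.96 RPM at 0.7 mm and was listed at none of the 1-mm libraries. Position 598 of 21PHAS_6272 had 3.68, 1.22 and 5.80 RPM and was likewise unlisted at 1 mm. Position 827 of 21PHAS_5173 had 0.889, 1.69 and 6.37 RPM and position 592 of 21PHAS_3430 had 2.16, 1.22 and 3.45 RPM, again with no listing at 1 mm. Position 722 of 21PHAS_45192 had 3.84, 0.853 and 3.99 RPM and no listing at 1 mm, and position 679 of 21PHAS_11890 had 2.80, 1.22 and 5.26 RPM and, in 1-mm replicate 1 only, 0.109 RPM.

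Some miR2118 positions were listed at 1 mm and not at 0.7 mm. Of the 212, 12 were listed in all 3 libraries of 1 mm and none of 0.7 mm, against 22 with the opposite listing. Over the 10059 transcript positions these counts were 66 and 47. Position 563 of 21PHAS_13995 (chromosome 3) had 1.09, 1.03 and 1.31 RPM at 1 mm, passed the caller in all 3, and was listed in no 0.7-mm library. Position 726 of 21PHAS_6210 (chromosome 1) had 1.20, 2.52 and 1.80 RPM at 1 mm and no listing at 0.7 mm, but it was assigned to the 21PHAS_45236 small RNA with an Allen score of 6 and passed the caller in no library. Other sites of this kind were listed in younger anthers as well: position 704 of 21PHAS_9867 had 0.979, 0.935 and 1.14 RPM at 1 mm, none at 0.7 mm, and 1.45 and 0.677 RPM at 0.4 mm.

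Summed by target id, limma called 20 targets (1.08%) lower at 1 mm and 7 (0.377%) higher of 1857 tested. The 20 are all 21-PHAS loci. The 7 are the loci 21PHAS_6201, 21PHAS_44536, 21PHAS_13995 and 21PHAS_6210, the meiotic loci 24PHAS_41460 and 24PHAS_14507, and transcript Zv00002aa012775_T001. This transcript carries the same values as 24PHAS_14507, so that these 2 may be 1 measurement. Of the 20, 5 were listed in all 6 libraries and 9 in no 1-mm library, and of the 7, 0 were listed in all 6 and 5 in no 0.7-mm library, so most calls rest on an entered 0. Over targets listed in all 6 libraries limma called 14 lower and 0 higher. The count of 27 ranged from 7 without 0.7-mm replicate 3 to 47 without 1-mm replicate 2, and was 10 without 0.7-mm replicate 1 and 46 without 0.7-mm replicate 2.

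miR2275 sites on 24-PHAS loci were more numerous in 1-mm anthers, in 2 of the 3 libraries by far. The 0.7-mm libraries held 0, 5 and 5 miR2275 interactions with 24-PHAS loci, and the 1-mm libraries 34, 7 and 35. The groups did not overlap, although 1-mm replicate 2 was 2 above the highest 0.7-mm library (means 3.33 ± 2.89 and 25.3 ± 15.9, SD, n = 3 each). The difference in mean log2(interactions + 1) was 2.71 (exact permutation p 0.1, adjusted p 0.28), and with a library left out it ran from 1.85 (without 0.7-mm replicate 1, exact permutation p 0.2) to 3.43 (without 1-mm replicate 2). It was 2.22 and 2.10 with the caller's threshold at 0.01 and 0.1. At an Allen score of at most 4 it was 2.39, and over all listed pairs 1.58. The exact permutation p was 0.2 in each of these settings, so the separation depended on the threshold. Summed over the listed miR2275 positions, passing or not, the level was 3.43, 7.55 and 9.25 RPM at 0.7 mm and 145, 11.2 and 104 RPM at 1 mm. The log2 ratio of the geometric means was 3.15 (8.91-fold, exact permutation p 0.1, adjusted p 0.28), and with a library left out it ran from 2.46 (without 1-mm replicate 1) to 4.31 (without 1-mm replicate 2). Only 3 pairs were positive at 0.7 mm, and all 3 were among the 24 positive at 1 mm. Passing interactions of miR2275 with transcripts are not in these counts. The form named miR2275_mirador had 2, 10 and 11 of them at 0.7 mm and 9, 20 and 11 at 1 mm, which overlap. miR2275c-3p had 0, 0 and 0 against 1, 2 and 1. Neither difference was tested.

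Part of the 0.7-mm signal could belong to annotated transcripts. At 4 to 14 of the listed miR2275 positions of a library, the pattern over the 6 libraries, unlisted ones included, matched that of a transcript position. The same reads may have been counted at both. Sites of few reads can also match without shared reads, which was not tested. These positions, termed shared, summed to 2.80, 7.19 and 7.62 RPM at 0.7 mm and 8.16, 9.07 and 11.8 RPM at 1 mm. The remaining positions summed to 0.634, 0.366 and 1.63 RPM at 0.7 mm and 137, 2.15 and 92.1 RPM at 1 mm. Both parts separated the stages without overlap. Most of the RPM of 1-mm replicates 1 and 3 lay in the unshared positions, and most of that of 1-mm replicate 2 and of the 0.7-mm libraries in the shared ones.

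A single locus held much of that sum. Position 575 of 24PHAS_41460 (chromosome 9, 105628857 to 105630589, meiotic) was listed in no 0.7-mm library and had 75.5, 0.0935 and 38.4 RPM at 1 mm, which was 52.0% of the miR2275 sum in replicate 1 and 37.0% in replicate 3. At 1.5 mm it had 336, 517 and 428 RPM, so the 1-mm libraries lay between unlisted and these values. Position 809 of 24PHAS_40515 (chromosome 9, 28628278 to 28629725) had 0.122 RPM in 0.7-mm replicate 2 only and, at 1 mm, 12.4 and 10.1 RPM in replicates 1 and 3 with no listing in replicate 2 (limma adjusted p 0.19). Without 1-mm replicate 2, 3 24-PHAS positions were called higher in place of 0. That library was seen to lack these sites, so the count without it conditions on the outcome and supports nothing. Position 639 of 24PHAS_40512, position 658 of 24PHAS_37027 and position 549 of 24PHAS_21534 had the same pattern, unlisted at 0.7 mm and in 1-mm replicate 2, with 3.47, 4.90 and 4.35 RPM in replicate 1 and 6.92, 4.09 and 2.12 RPM in replicate 3.

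The 3 miR2275 positions listed in all 6 libraries behaved otherwise. Position 1056 of 24PHAS_4958 had 0.762, 3.05 and 3.45 RPM at 0.7 mm and 1.52, 3.08 and 2.29 RPM at 1 mm, a log2 difference of 0.12 that overlapped fully. Position 656 of 24PHAS_43383 had 0.508, 1.10 and 1.81 RPM against 0.979, 2.06 and 2.12 RPM, and position 1106 of 24PHAS_39055 had 1.14, 1.46 and 0.363 RPM against 1.20, 1.22 and 1.63 RPM. All 3 carry the same values as a transcript position (on Zv00002aa004446, Zv00002aa037129 and Zv00002aa033327). Of the 84 miR2275 positions, 56 were listed at 1 mm only and 1 at 0.7 mm only. Of the 56, 23 were listed in 1 library, 29 in 2 and 4 in all 3. Of the 10059 transcript positions, 3698, 480 and 66 had these listings at 1 mm only. At 0.7 mm only, 3092, 327 and 47 transcript positions did. Over the 6 libraries the passing miRNA records on PHAS loci numbered 539 on 21-PHAS, 90 on meiotic 24-PHAS and 0 on premeiotic 24-PHAS loci, and the passing phasiRNA records 330, 20 and 0.

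**Figure D3:**
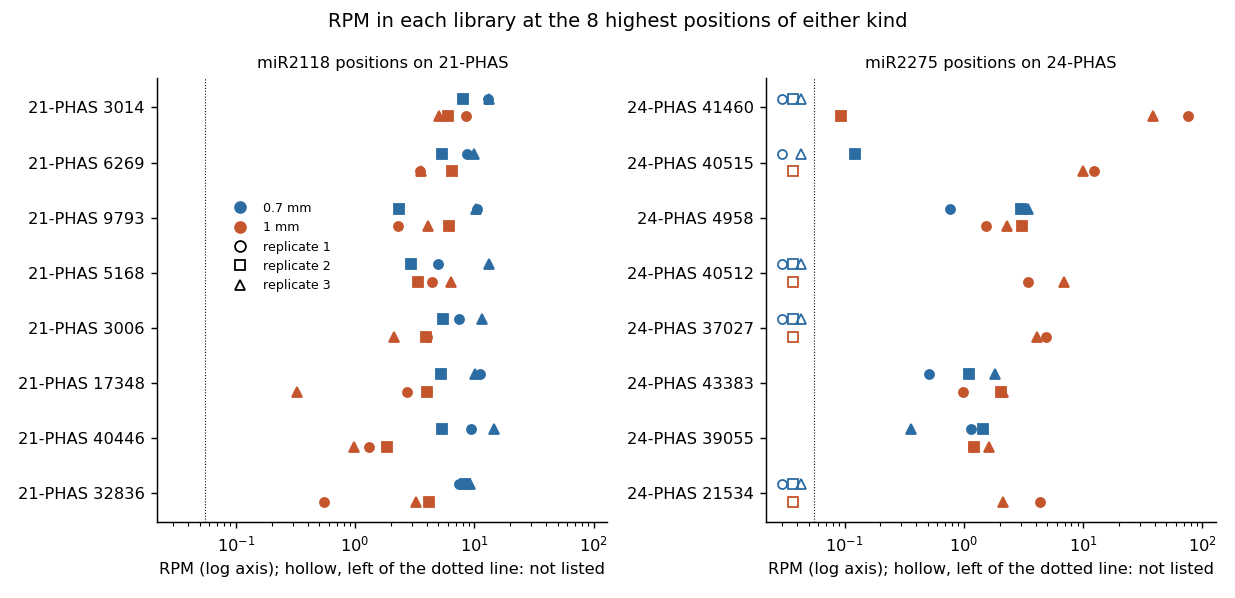
RPM in each library (log axis) at the 8 miR2118 positions and the 8 miR2275 positions with the highest mean RPM among positive pairs, blue for 0.7 mm and red for 1 mm. Hollow symbols left of the dotted line are libraries that did not list the position and carry no value. The miR2118 positions were listed in all 6 libraries, while 4 of the 8 miR2275 positions were listed in no 0.7-mm library, and 24PHAS_41460 reached 75.5 RPM at 1 mm.

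Cuts of transcripts by other miRNAs were listed at both stages and did not separate them. The 0.7-mm libraries held 86, 110 and 121 interactions of other miRNAs with transcripts and the 1-mm libraries 84, 121 and 73, which overlap (exact permutation p 0.5, adjusted p 0.58). RPM was also summed over all listed positions of these miRNAs, passing or not, 1046 to 1448 in a library. The sums were 392, 409 and 504 against 402, 397 and 372 (log2 ratio -0.15, exact permutation p 0.3, adjusted p 0.38). Of the 1432 transcript positions tested, limma called 0, and 142 had an unadjusted p below 0.05. Limma without trend called 3 of them higher and 7 lower at 1 mm, and the fit over all 14 TIL11 libraries 37 higher and 35 lower. Positive pairs numbered 66 at 0.7 mm and 50 at 1 mm, and the 33 shared pairs are 50% of the first list and 66% of the second. A p that misses the threshold with 3 libraries a stage does not show that the stages are alike.

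miR396 and miR160 had the most positive target genes. miR396, which cuts growth-regulating factor (GRF) transcription factors, had 7 positive genes at 0.7 mm and 8 at 1 mm with 6 shared, and miR160, which cuts auxin response factors (ARFs), had 6 and 5 with 5 shared. miR171, whose targets are GRAS transcription factors, had 4 and 4 with 4 shared. miR167, which cuts another group of ARFs, had 4 and 2 with 2 shared, and the miR156 and miR529 family, which cuts SBP transcription factors, had 2 and 3 with 2 shared. Positive at 0.7 mm only were miR395 with 3 genes, the miR165, miR166 and miR5168 group with 2, the miR397, miR398, miR408 and miR528 group with 2 and miR164 with 1, and miR393 had 1 gene at 1 mm only. miR394 had 1 gene at each stage with 0 shared, and miR169 had 2 and 1 with 1 shared. No positive gene was found for miR159, miR319, miR172, miR390, miR399 or miR827. The difference between stages was not tested by family.

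The leading site of each family had low values. For miR160 (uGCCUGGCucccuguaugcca), position 1897 of the ARF transcript Zv00002aa020413_T001 had 0.508, 0.853 and 2.54 RPM at 0.7 mm and 1.41, 1.17 and 1.14 RPM at 1 mm, which overlap. For miR167 (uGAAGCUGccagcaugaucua), position 2305 of the ARF transcript Zv00002aa002983_T001 had 1.14, 1.97 and 3.10 RPM against 0.435, 1.54 and 0.817 RPM (log2 difference -1.12 ± 0.69 SE, limma adjusted p 0.55). For miR396 (uCCACAGGcuuucuugaacug), position 697 of the GRF transcript Zv00002aa006595_T001 had 0.889 and 0.363 RPM in 0.7-mm replicates 1 and 3 and no listing in replicate 2, against 1.99, 1.36 and 0.654 RPM at 1 mm. Its log2 difference of 1.88 ± 0.90 SE did not pass (limma adjusted p 0.34). For miR171, position 1605 of the GRAS transcript Zv00002aa006820_T001 had 0.612, 0.801 and 1.92 RPM against 0.157, 0.480 and 0.980 RPM, which overlap. The leading sites of miR164 on a NAC transcription factor transcript and of miR394 were each listed in all 3 libraries of 0.7 mm and in 1-mm replicate 2 only. They had 1.02, 0.366 and 0.363 RPM against 0.187 RPM (Zv00002aa024138_T001, position 848) and 0.508, 0.853 and 0.544 RPM against 0.280 RPM (Zv00002aa013090_T001, position 1377), with limma adjusted p-values of 0.22 and 0.19.

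**Figure D4:**
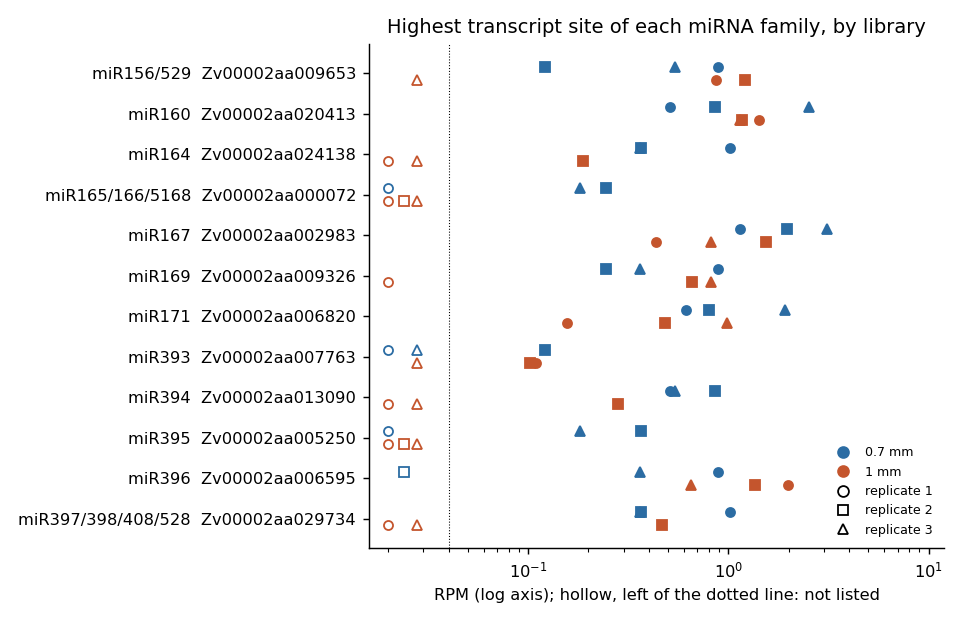
RPM in each library (log axis) at the transcript site with the highest mean RPM among the positive pairs of each miRNA family, blue for 0.7 mm and red for 1 mm. Hollow symbols left of the dotted line are libraries that did not list the site. No listed value exceeds 3.10 RPM, and no tested site passed between stages.

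Small RNAs of 21-PHAS loci that cut their own precursor had fewer interactions in every 1-mm library. The 0.7-mm libraries held 26, 20 and 31 cis interactions and the 1-mm libraries 13, 15 and 9, with means of 25.7 ± 5.51 and 12.3 ± 3.06 (SD, n = 3 each). The groups did not overlap (difference in mean log2(interactions + 1) -1.01, exact permutation p 0.1, adjusted p 0.28). Of the 17 cis pairs positive at 0.7 mm, 4 were positive at 1 mm, where 6 were positive in all. The highest cis site was position 948 of 21PHAS_9791 (chromosome 2, 163046921 to 163048547), with 2.16, 0.366 and 1.27 RPM at 0.7 mm and 0.653, 0.467 and 0.163 RPM at 1 mm, which overlap. Position 880 of 21PHAS_17236 (chromosome 4) had 2.54, 0.487 and 0.544 RPM at 0.7 mm and 0.218 RPM in 1-mm replicate 1 only. Positions 611 of 21PHAS_32731 and 824 of 21PHAS_44539 had 1.27, 0.975 and 0.544 RPM and 1.14, 0.609 and 0.907 RPM at 0.7 mm, with no listing at 1 mm. The small RNAs named for these loci are printed with the seed in capitals, because each pairs perfectly (Allen score 0) with its own precursor.
21PHAS_9791 phasiRNA: uUGUGGCAcaugacugaacug
21PHAS_17236 phasiRNA: uUGUUGCAcgggcuaaauucg
21PHAS_32731 phasiRNA: uCACGGAAccauggaggguuc
21PHAS_44539 phasiRNA: uAGUCGGCgccaucuucauug
Each is 21 nt long, and the 4 seeds differ from each other and from those of miR2118.

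Most cis sites on loci with a miR2118 site lay in the same register to it. Of the 67 cis positions listed, 29 lie on 27 loci that also carry a miR2118 position. The distance to the cis position from the miR2118 position with the highest RPM on its locus, taken modulo 21 nt, left a remainder of 9 at 19 of the 29, and no other remainder occurred more than 2 times. These 19 lie on 19 different loci, all with an Allen score of 0, at distances of 30 to 177 nt. On 21PHAS_9791 the miR2118 position is 918 and the cis position 948, a distance of 30 nt. On 21PHAS_44539 they are 731 and 824, 93 nt apart, and on 21PHAS_17236 724 and 880, 156 nt apart. A phasiRNA copied from the strand opposite the precursor, in register with the miRNA cut, with an overhang of 2 nt and cutting opposite its base 10, falls on a remainder of 9 by arithmetic. The remainder was 9 at 17 of the 24 such positions listed at 0.7 mm and at 7 of the 13 listed at 1 mm. The difference between these shares was not tested. The study identified the loci by the phasing of their small RNAs, so the shared register is partly set by that choice. It is given as a description and is no separate evidence of phasing.

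**Figure D5:**
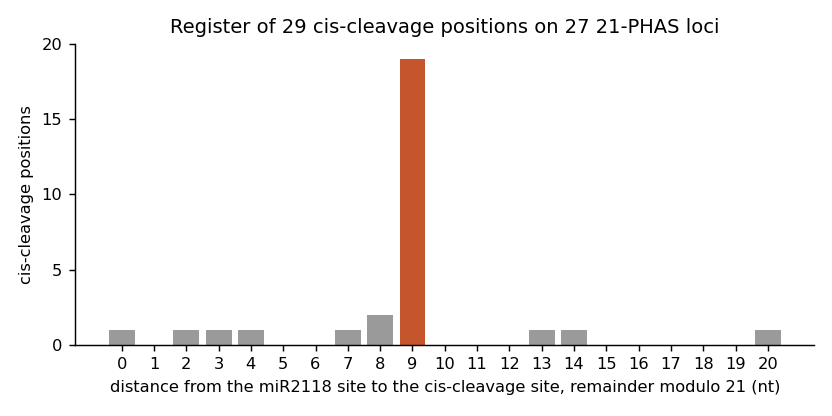
Number of 21-PHAS cis-cleavage positions (vertical axis) by the distance in nt from the miR2118 site to the cis site, given as the remainder modulo 21 (horizontal axis), for the 29 positions on 27 loci that carry both kinds of site in the 0.7-mm and 1-mm libraries. The red bar at a remainder of 9 holds 19 positions, and each grey bar holds 1 or 2.

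Trans interactions of small RNAs from 21-PHAS loci numbered 46, 25 and 56 at 0.7 mm and 26, 28 and 20 at 1 mm, which overlap (exact permutation p 0.3, adjusted p 0.38). Of the 37 pairs positive at 0.7 mm and the 22 positive at 1 mm, 19 were shared. The 22-nt small RNA of 21PHAS_45236, which differs from both printed forms of miR2118 by 2 bases, accounted for 32 of the 37 and 21 of the 22. Over the 6 libraries it had 62 passing positions, of which 56 were also miR2118 positions, so its counts and those of miR2118 rest largely on the same 5′ ends and are not separate evidence. The other positive trans pairs joined 21PHAS_17122 to 21PHAS_17121, 21PHAS_43861 to 21PHAS_43835 and 21PHAS_43871, 21PHAS_43880 to 21PHAS_43879, 21PHAS_5173 to 21PHAS_5168 and 21PHAS_9495 to 21PHAS_9513.

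PhasiRNAs of 24 nt left few cuts at either length. Cis interactions numbered 2, 1 and 2 at 0.7 mm and 2, 2 and 2 at 1 mm, and trans interactions 0, 0 and 0 against 0, 0 and 5 (exact permutation p 1 for each). The cis site at position 766 of 24PHAS_23338 (chromosome 5) had 0.127 and 0.363 RPM in 0.7-mm replicates 1 and 3 and 0.218, 0.841 and 0.490 RPM at 1 mm, and it lies 204 nt from the miR2275 position, a remainder of 12 modulo 24 nt. Its values are identical to those of transcript Zv00002aa020505. The cis site at position 652 of 24PHAS_37184 (chromosome 8) had 0.508 and 0.544 RPM in 0.7-mm replicates 1 and 3 and 0.187 RPM in 1-mm replicate 2, and shares its values with transcript Zv00002aa031646_T001.

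Interactions of phasiRNAs with transcripts numbered 11, 9 and 15 at 0.7 mm and 19, 20 and 15 at 1 mm. The groups meet at 15 (difference in mean log2(interactions + 1) 0.60, exact permutation p 0.2, adjusted p 0.35). Positive pairs numbered 3 and 5 with 2 shared. The 2 shared pairs are isoforms of Zv00002aa020505 with the same values, so they may be 1 measurement. Apart from the pairs that share values with 24PHAS_23338 and 24PHAS_37184, the positive pairs were 2 transcripts of the 21PHAS_29223 small RNA and 1 of 24PHAS_43029. All of these were positive at 1 mm. Zv00002aa007488_T001 had 0.109 and 0.320 RPM in 1-mm replicates 1 and 3 and no listing at 0.7 mm. Zv00002aa020751_T001 had 1.14 RPM in 0.7-mm replicate 1 and 0.218 and 0.163 RPM in 1-mm replicates 1 and 3. Zv00002aa036763_T001 had 0.181 RPM in 0.7-mm replicate 3 and 0.109 and 0.243 RPM in 1-mm replicates 1 and 2.

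The numbers of listed sites, passing or not, overlapped between the stages. On 21-PHAS loci 242, 210 and 250 positions were listed at 0.7 mm and 179, 218 and 162 at 1 mm, and on 24-PHAS loci 13, 12 and 24 against 67, 17 and 82. Transcripts had 2183, 2876 and 2441 listed positions against 3011, 3195 and 2428. With all 6 libraries none of the 3 separated (exact permutation p 0.2, 0.2 and 0.3, adjusted p 0.35, 0.35 and 0.38). Without 1-mm replicate 2 both PHAS classes did, with differences in the mean of -63.5 positions on 21-PHAS and 58.2 on 24-PHAS loci (exact permutation p 0.1 each). That library was singled out by its own listing, so the separation without it conditions on the outcome and supports nothing. Among positions that passed the caller both PHAS classes separated with all 6 libraries (exact permutation p 0.1 each). The target ids mostly had a single site: the mean was 1.00 to 1.21 positions per target over the classes and libraries, and 81.7% to 100% of targets had 1. On 21-PHAS loci the share with 1 position was 81.7% to 85.9% at 0.7 mm and 88.8% to 92.7% at 1 mm. Replicate 3 had the fewest reads of each stage. It listed the most 21-PHAS positions of the 0.7-mm libraries and the fewest of the 1-mm libraries, and the part of depth was not tested. The level of the precursors themselves is not part of these lists, so less precursor and less cutting cannot be told apart.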

How the data were processed

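The authors made a nanoPARE library from each sample, aligned it to the TIL11 version 1 assembly and called cleavage sites with the EndCut step of the nanoPARE pipeline (version not given in the sources used here). The deposited tables give, per small RNA and target, the RPM at the cleavage site, the Allen score, and the p-value and adjusted p-value of the authors' caller. RPM came in steps of 0.01 read, with 87.0% to 90.0% of values within 0.01 of whole reads, so it was not turned into counts. Interactions were counted at an adjusted p-value below 0.05, and RPM was summed over distinct listed positions, passing or not. Stages were compared over libraries with the exact permutation test (Benjamini-Hochberg over 14 tests, Python 3.11.15 with numpy 2.4.6), and positions and target ids with limma 3.58.1 in R 4.3.3, with trend, on log2(RPM + 0.1), for those listed in at least 3 of 6 libraries. The fits were tested on simulated data with log2 changes of 1, 2 and 4. Over positions listed in at least 3 libraries, 0%, 2.99% and 42.4% of these changes were called. Over positions listed in all 6 libraries, 0%, 52.2% and 95.7% were called. Most changes of 4-fold or less would thus be missed in the first fit. A fold change on this scale understates the change of low sites. Alternatives were other pseudocounts, filters and thresholds, centring, all 14 TIL11 libraries, leaving out each library in turn, and a replicate block. The fit over positions listed in all 6 libraries was listed among the alternatives, and its own alternatives were chosen after seeing the data.

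Named sites were the 8 highest by mean RPM among positive miR2118 and miR2275 pairs, the highest transcript site of each miRNA family, the 6 called positions with the largest change in each direction, any premeiotic 24-PHAS locus with a passing site, the 4 highest cis sites per phasiRNA length (21 and 24 nt), the phasiRNA source with the most trans pairs, and every transcript with a positive phasiRNA pair. 21PHAS_32830, 21PHAS_9867 and the targets called were named after their values were seen. The members and lists were chosen with earlier results of these data known. PHAS loci, transcription factor families and small RNA sequences come from the study's supplementary lists, which were compiled in the same study and are not independent of these samples. All 370 PHAS targets matched that list, but 87 of 486 positions lay beyond the length of their locus, by up to 980 nt, so positions are given along the deposited target and not as genome coordinates. Only full-name matches of small RNAs were used for sequences.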

Additional observations from a re-analysis of the deposited data

How the results depend on the processing

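In the 14 tests of 3 libraries against 3, leaving out a library reversed the direction in 0 of 84 cases. A difference of 0 was not counted as reversed. The difference fell to 0 for 24-nt cis interactions without 0.7-mm replicate 2 and for 24-nt trans interactions without 1-mm replicate 3. Of 90 other alternatives, 85 did not reverse the direction and 5 did. The 5 that turned were small: other miRNA interactions with transcripts over all listed pairs (0.15 on the log2 scale), 24-nt cis interactions at 2 reads or more (-0.19), phasiRNA interactions with transcripts at an adjusted p below 0.1 (-0.068), and listed transcript positions at an adjusted p below 0.05 (-0.333 positions) or at 2 reads or more (-284 positions). With 3 against 3 none of them could pass the threshold. The limma count of 14 positions was 34 with a pseudocount of 0.5 RPM, 23 with 1 RPM, 24 with no filter, 34 without trend, 151 over all 14 TIL11 libraries, and 3 (without 0.7-mm replicate 1) to 45 (without 1-mm replicate 2) with a library left out, with 43 without 0.7-mm replicate 2 and 24 without 1-mm replicate 3. For the 16 positions listed in all 6 libraries the latter range was 5 to 40. The 27 targets became 14 over those listed in all 6, 125 over all 14 libraries, and 7 to 47 with a library left out. Positive miR2118 pairs at 1 mm were 94 when 1 replicate sufficed and 37 when all 3 were required. Those of miR2275 were 7 and 0 at 0.7 mm and 45 and 7 at 1 mm. The causes were not tested.

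The replicate numbers are not given as pairing the samples. Deviations of same-numbered libraries correlated at 0.14, 0.05 and 0.06 over the 277 positions, not all above 0.1, although each library correlated best with its own number. With a replicate block the counts were 51 positions, 8 of those listed in all 6 libraries, and 53 targets. Over targets listed in all 6 libraries the block left 0 of the 14 called.

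Of 41 named positions, 3 of 302 alternatives reversed the direction, all at Zv00002aa009653_T001 position 758, which had no clear direction (0.13 with a pseudocount of 0.5 RPM, 0.11 with 1 RPM, 0.043 centred). Leaving out a library reversed 10 of 198, at this position (-0.74 to 1.12), 21PHAS_5168 (-0.82 to 0.25), 24PHAS_4958 (-0.53 to 0.49), Zv00002aa020413_T001 (-0.25 to 0.81), Zv00002aa009326_T001 (-0.98 to 0.62) and Zv00002aa020751_T001 (-0.80 to 0.32). Depth limits the lowest sites: 3 reads were 0.280 to 0.544 RPM, and 6944 of 10545 positions were listed in 1 library.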
